A study of Homo sapiens with 12 samples.

Results

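Fc receptors are the cell-surface and endosomal proteins that bind the constant end of antibodies. The genes FCGR1A, FCGR2A, FCGR2B, FCGR3A, FCGR3B, FCER1G, FCGRT and FCAR were chosen by name and matched by Ensembl identifier to the rows of a raw count table, which gave 8 of its 58735 genes. They were measured by RNA sequencing in 12 libraries of OCI-AML2, an established human line from acute myeloid leukemia with a rearranged KMT2A gene. All cells were infected with a lentivirus carrying a guide RNA, either the control guide sgLuc, which is directed at luciferase (genotype labelled WT), or sgUTX_2 or sgUTX_4, guides against KDM6A, the gene of the histone demethylase UTX (genotype labelled UTX knockout). Each was grown for 6 days in DMSO, the solvent, or in 1 µM SGC0946, which inhibits DOT1L, a histone methyltransferase, and each of the 6 combinations has 2 libraries. The design asks how the UTX guides change expression, how SGC0946 changes it, and whether the response to SGC0946 depends on the guide.

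Receptors for IgG fall into activating and inhibitory types, and myeloid cells usually carry both. Activating receptors such as FCGR1A (CD64, high affinity) and FCGR3A (CD16a, low affinity) signal through a separate adaptor, the FcR gamma chain encoded by FCER1G, whose ITAM motif recruits the kinase SYK, while FCGR2A (CD32a) carries an ITAM in its own tail. FCGR2B (CD32b) is the inhibitory receptor and recruits the phosphatase SHIP1, encoded by INPP5D. FCGR3B (CD16b) is held in the membrane by a lipid anchor and is best known from neutrophils, FCAR (CD89) binds IgA and uses the FcR gamma chain, and FCGRT encodes FcRn, which pairs with B2M and recycles IgG and albumin inside the cell.

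Of the 8 genes, 6 lie on chromosome 1, and FCGRT and FCAR lie on chromosome 19 (positions from GENCODE 29, GRCh38, all protein coding). FCGR1A (ENSG00000150337) spans chr1:149782671-149792518 on the plus strand. The low-affinity cluster holds FCGR2A (ENSG00000143226, chr1:161505430-161524013, plus), FCGR3A (ENSG00000203747, chr1:161541759-161550737, minus), FCGR3B (ENSG00000162747, chr1:161623196-161631963, minus) and FCGR2B (ENSG00000072694, chr1:161663147-161678654, plus). FCER1G (ENSG00000158869) lies at chr1:161215234-161220699 (plus). FCGRT (ENSG00000104870) lies at chr19:49506816-49526333 and FCAR (ENSG00000186431) at chr19:54874248-54890472, both on the plus strand.

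Several of these genes have near-identical copies, and their sequences set how far their reads can be told apart. Aligned coding sequences of FCGR3A and FCGR3B differed at 9 of 699 bases (98.71% identity). The ends of both are shown because the coding sequence of FCGR3A runs past that of FCGR3B there. The capitals mark a single differing base and the 63 bases by which the coding sequence of FCGR3A runs past the end of FCGR3B (GENCODE 29 transcripts, coding strand, 5′ to 3′).
FCGR3A: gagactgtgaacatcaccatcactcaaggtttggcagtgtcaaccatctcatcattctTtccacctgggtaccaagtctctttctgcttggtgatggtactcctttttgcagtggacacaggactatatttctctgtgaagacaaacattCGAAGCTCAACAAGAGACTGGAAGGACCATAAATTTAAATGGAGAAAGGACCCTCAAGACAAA
FCGR3B: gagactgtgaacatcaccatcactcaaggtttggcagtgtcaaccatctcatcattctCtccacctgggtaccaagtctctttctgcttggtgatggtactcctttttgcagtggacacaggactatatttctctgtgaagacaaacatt

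FCGR2C (ENSG00000244682, chr1:161581339-161605662, plus), annotated as a polymorphic pseudogene, joins sequence of both FCGR2B and FCGR2A. Its first 500 coding bases were 99.6% identical to FCGR2B over the aligned bases and 92.12% to FCGR2A. Its last 150 coding bases were 99.33% identical to FCGR2A and 75.68% to FCGR2B over the aligned bases. These last 150 coding bases, which encode most of the tail inside the cell, are given for the 3 genes, with capitals at the 1 base that differs between FCGR2A and FCGR2C.
FCGR2A: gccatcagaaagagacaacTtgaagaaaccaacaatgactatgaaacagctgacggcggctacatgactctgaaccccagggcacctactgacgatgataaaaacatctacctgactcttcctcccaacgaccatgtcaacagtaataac
FCGR2C: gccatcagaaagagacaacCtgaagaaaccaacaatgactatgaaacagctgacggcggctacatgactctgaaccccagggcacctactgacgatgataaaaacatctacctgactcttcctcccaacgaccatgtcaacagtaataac
FCGR2B: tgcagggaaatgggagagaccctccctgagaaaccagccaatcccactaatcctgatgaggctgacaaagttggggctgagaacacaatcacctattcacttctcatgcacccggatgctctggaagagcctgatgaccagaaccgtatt

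The share of 150-base windows along a gene's transcripts that match another gene exactly, 150 bases being the length of 1 read, was 18.8% for FCGR1A, 7.49% for FCGR2B, 4.45% for FCGR3A, 4.08% for FCGR3B and 2.82% for FCGR2A. It was 0% for FCER1G, FCGRT and FCAR, so values of these 3 genes carry no such uncertainty. FCGR1A shares its windows with FCGR1B (ENSG00000198019) and the pseudogene FCGR1CP (ENSG00000265531), and FCGR3A and FCGR3B share theirs with each other. Of the 172 shared windows of FCGR2A, 147 match AL590385.2, a gene on the same strand that overlaps both FCGR2A and FCGR2C. FCGR1A also overlaps other genes on the opposite strand over 24.6% of its exonic bases, 18.7% with the antisense gene AC243772.2 and 5.9% with HIST2H2BF, and FCGR2B overlaps the antisense gene AL451067.1 over 7.29%. How reads that fit several genes were counted, and whether strand was used, is not given in the sources used here, so the split between these genes is uncertain.

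Total counts per library lay between 15480493 and 23262141, and 15060 genes passed the filter on low counts. Levels are given as CPM (read counts scaled to a fixed library total) scaled by TMM factors, and changes as log2 fold changes with their standard error (SE) and an adjusted p from edgeR's quasi-likelihood test, called at under 0.05. The 2 guides against KDM6A were pooled into 1 sgUTX group of 4 libraries in each treatment, unless a guide is named. Comparisons of sgUTX with sgLuc thus set 2 UTX guides against 1 control guide, and libraries of the same guide count as replicates. No label says whether the 2 libraries of a group stem from different cultures. The p-values therefore cover the spread among the libraries at hand, part or all of which may be technical. KDM6A itself read 30.0 ± 2.91 CPM in sgLuc DMSO libraries, 15.1 ± 0.618 in sgUTX_2 and 47.8 ± 2.26 in sgUTX_4 DMSO libraries (SD, n = 2 each). Relative to the control guide the transcript was thus lower for sgUTX_2 but higher for sgUTX_4, so its level does not check the knockout label of sgUTX_4, and sgUTX stands throughout for the libraries labelled so. The share of counts in ribosomal protein genes was 17.67% and 18.87% in sgLuc DMSO libraries and 10.97% to 13.1% in the other 10, and whether this bears on the values of the Fc receptor genes was not tested beyond the scaling alternatives below. In bulk RNA, fewer cells of a type and less RNA per cell cannot be told apart.

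With DMSO, the 8 genes were lower in sgUTX than in sgLuc libraries, from 0.89 lower on the log2 scale for FCGR1A to 4.64 lower for FCGR2B. With SGC0946, 7 genes rose in sgLuc cells and FCGR1A fell, and the same 7 to 1 split held in sgUTX cells. The rises differed widely in size. FCGR2B, FCGR3A and FCGR3B went from at most 4.48 CPM to between 89.2 and 115.9 CPM in sgLuc cells, while FCGR2A, FCGRT and FCAR rose by 0.67 to 0.98 on the log2 scale. In sgUTX cells with SGC0946 the 8 genes stayed below sgLuc cells with SGC0946.

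Among all genes tested, 61% were called between sgUTX and sgLuc in DMSO (28.7% higher and 32.3% lower), against 8 of the 8 Fc receptor genes, all lower. For SGC0946 against DMSO in sgLuc cells the background was 48.9% (24.7% higher and 24.2% lower), against 7 higher and 1 lower. In sgUTX cells it was 33.8% (17.4% higher and 16.4% lower), again against 7 higher and 1 lower. Between sgUTX and sgLuc in SGC0946 it was 56.9% (27.7% higher and 29.3% lower), against 8 lower. In each of these 4 comparisons the libraries of the compared groups did not overlap for any of the 8 genes. The share of all genes without such overlap was not computed, so this describes the 8 genes and does not set them apart. The comparisons share libraries with each other, so their counts are not independent.

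FCGR2B, FCGR3A and FCGR3B passed the filter only through the groups in which they were high. FCGR3B reached 10 counts in no DMSO library and in the 6 SGC0946 libraries, and FCGR2B and FCGR3A reached it in 8 libraries, of which the sgLuc pair were the only DMSO libraries. These 3 had to differ between some groups, and the count over the 8 genes supports nothing by itself. The adjusted p-values printed for these 3, and for sums that include any of them, carry the same selection. They are given as descriptions and not as support for a difference. The same holds for the copy FCGR2C, which reached 10 counts in 8 libraries, 2 of them in DMSO. The other 5 of the 8 genes had at least 10 counts in all 12 libraries. When libraries were scaled by their total counts alone, the median log2 fold change of all genes moved from -0.01 to 0.26 for sgUTX against sgLuc in DMSO and from 0.01 to 0.20 in SGC0946. The share of calls that were higher then moved from 47.1% to 66.7% in DMSO, from 48.6% to 65% in SGC0946 and, for SGC0946 in sgLuc cells, from 50.6% to 60.9%. Under that scaling the 8 genes kept their direction and their call in the 4 comparisons, with FCGR1A at -0.62 and FCGR2B at -4.37 for sgUTX against sgLuc in DMSO.

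**Figure D1:**
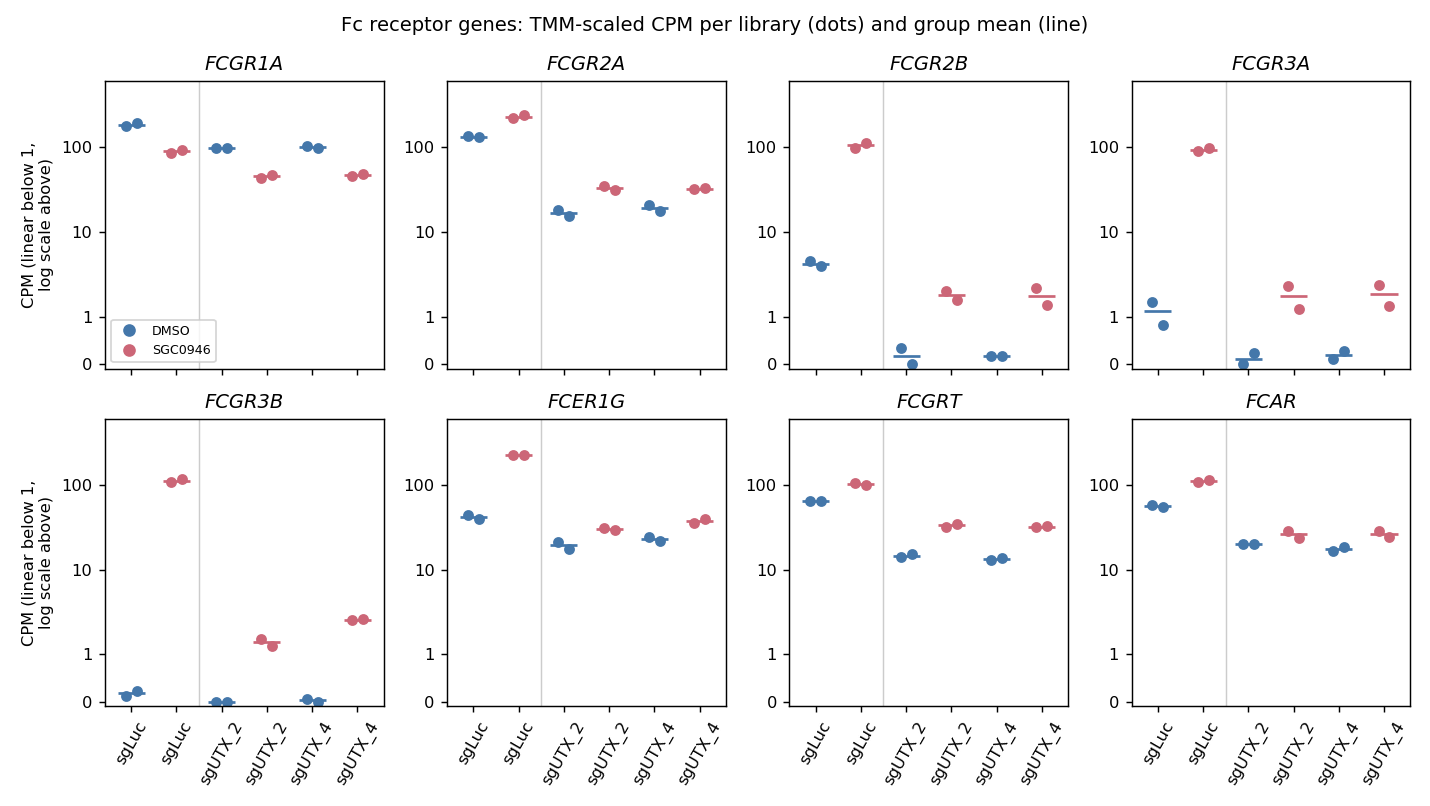
Level of each Fc receptor gene in each library (dots, CPM scaled by TMM factors, linear below 1 and log above) with the mean of the 2 libraries of a group (line), for the guides sgLuc, sgUTX_2 and sgUTX_4 in DMSO (blue) and SGC0946 (red). FCGR1A is the gene whose SGC0946 libraries lie below the DMSO libraries of the same guide; FCGR2B, FCGR3A and FCGR3B are near 0 in DMSO and reach 89.2 to 115.9 CPM in sgLuc cells with SGC0946.

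FCGR1A, the high-affinity activating receptor for IgG, was the member with the highest level per length in untreated control cells and fell with SGC0946, where the other 7 rose. It read 177 and 189.8 CPM in sgLuc DMSO libraries and 86.2 and 92.9 in sgLuc SGC0946 libraries. In sgUTX cells it read 96.3 and 97.7 CPM (sgUTX_2) and 102.3 and 98.1 CPM (sgUTX_4) in DMSO, and 43.7, 47.2, 45.3 and 48.4 CPM in SGC0946. The lowest levels were those of the 4 sgUTX SGC0946 libraries, at 25.2% of the sgLuc DMSO mean. The log2 fold change was -0.89 for sgUTX against sgLuc in DMSO (SE 0.06, edgeR adjusted p = 1.615e-11) and -0.96 in SGC0946 (SE 0.06). For SGC0946 against DMSO it was -1.03 in sgLuc cells (SE 0.07, edgeR adjusted p = 7.226e-11) and -1.09 in sgUTX cells (SE 0.05). The 2 responses differed by -0.06 (95% confidence interval -0.25 to 0.12, edgeR adjusted p = 0.631). In the order of levels, sgLuc DMSO stood first, then the 2 sgUTX DMSO groups, then sgLuc SGC0946, and the ranges of sgUTX_4 and sgUTX_2 in SGC0946 overlapped. The uncertain split with FCGR1B, FCGR1CP and the antisense gene applies to each of these values.

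FCGR2A, the activating receptor with its own ITAM, was the low-affinity receptor with the highest level in DMSO. It read 135 and 129.6 CPM in sgLuc DMSO libraries and 217 and 238 CPM in sgLuc SGC0946 libraries. The sgUTX libraries read 18.0, 15.6, 21.0 and 17.5 CPM in DMSO and 34.4, 30.8, 32.4 and 32.5 CPM in SGC0946. Each sgUTX library lay below each sgLuc library, whatever the treatment. The log2 fold change for sgUTX against sgLuc was -2.88 in DMSO (SE 0.08, edgeR adjusted p = 3.61e-18) and -2.81 in SGC0946 (SE 0.08, edgeR adjusted p = 2.705e-18). SGC0946 raised it by 0.78 in sgLuc cells (SE 0.09, edgeR adjusted p = 1.584e-07) and by 0.86 in sgUTX cells (SE 0.07). These responses differed by 0.07 (95% confidence interval -0.16 to 0.31, edgeR adjusted p = 0.6657).

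FCGR3A, the low-affinity activating receptor known from monocyte subsets and natural killer cells, was close to absent in DMSO. Its libraries held 24 and 11 counts in sgLuc DMSO, and 0, 5, 2 and 5 counts in sgUTX DMSO. In SGC0946 they held 1478 and 1738 counts in sgLuc cells (89.2 and 96.4 CPM) and 51, 30, 42 and 26 counts in sgUTX cells (1.23 to 2.38 CPM). The sgUTX SGC0946 libraries overlapped the sgLuc DMSO libraries (0.833 and 1.49 CPM). SGC0946 raised FCGR3A by 6.27 on the log2 scale in sgLuc cells (SE 0.27, edgeR adjusted p = 4.178e-12) and by 3.51 in sgUTX cells (SE 0.43, edgeR adjusted p = 5.033e-06). For sgUTX against sgLuc the log2 fold change was -2.93 in DMSO (SE 0.59, edgeR adjusted p = 0.0003195) and -5.70 in SGC0946 (SE 0.18). The response to SGC0946 was smaller in sgUTX than in sgLuc cells (log2 difference -2.77, SE 0.80, edgeR adjusted p = 0.01256). That call was lost without the second sgUTX_2 DMSO library (-2.49, edgeR adjusted p = 0.07019) and without the second sgUTX_4 DMSO library (-2.39, edgeR adjusted p = 0.08061), which held 5 of the 12 counts of the group each.

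FCGR3B, the lipid-anchored receptor of neutrophils, had the largest fold rise of the 8 genes with SGC0946, in sgLuc and in sgUTX cells. It held 2 and 3 counts in sgLuc DMSO and 1769 and 2091 counts in sgLuc SGC0946 libraries (106.8 and 115.9 CPM). With the UTX guides it held 0, 0, 1 and 0 counts in DMSO and 34, 31, 45 and 51 counts in SGC0946 (1.27 to 2.61 CPM). The summed counts gave a rate 653 times as high with SGC0946 as with DMSO in sgLuc cells (3860 against 5 counts, 95% counting interval 280 to 2013). In sgUTX cells the ratio was 153 (161 against 1 count, interval 27.1 to 6080), and such intervals cover counting error only. The edgeR fit gave log2 fold changes of 9.29 in sgLuc cells (SE 0.30, edgeR adjusted p = 1.823e-15) and 6.66 in sgUTX cells (SE 0.56, edgeR adjusted p = 8.552e-09). In DMSO the sgUTX rate was 0.0734 of the sgLuc rate (1 against 5 counts, interval 0.00155 to 0.656). The edgeR log2 fold change for sgUTX against sgLuc in DMSO was -3.21 (SE 1.28, edgeR adjusted p = 0.03589). That call was lost without any 1 of 5 of the 6 DMSO libraries (edgeR adjusted p between 0.06571 and 0.1959), the exception being the first sgUTX_4 library, which holds the single count. In SGC0946 the sgUTX level was lower than the sgLuc level (log2 fold change -5.85, SE 0.15, edgeR adjusted p = 1.786e-17). The difference of the 2 responses was not measurable at this depth (-2.63, 95% confidence interval -8.30 to 3.04, edgeR adjusted p = 0.4945).

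FCAR, the IgA receptor, stood at intermediate levels throughout. It read 57.2 and 54.9 CPM in sgLuc DMSO and 108 and 113 CPM in sgLuc SGC0946 libraries. The sgUTX libraries gave 20.2, 20.2, 16.6 and 18.6 CPM in DMSO and 28.3, 23.6, 28.6 and 24 CPM in SGC0946. SGC0946 raised it by 0.98 in sgLuc cells (SE 0.10, edgeR adjusted p = 3.183e-08) and by 0.46 in sgUTX cells (SE 0.08, edgeR adjusted p = 6.714e-05), on the log2 scale. The response was smaller in sgUTX cells (log2 difference -0.52, SE 0.13, edgeR adjusted p = 0.002811). For sgUTX against sgLuc the log2 fold change was -1.56 in DMSO (SE 0.09) and -2.08 in SGC0946 (SE 0.08).

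FCER1G, the gamma chain that FCGR1A, FCGR3A and FCAR need for surface expression or signalling, showed the largest difference between the responses among the genes with over 10 counts in all libraries. It read 44.2 and 40.1 CPM in sgLuc DMSO and 227 and 222 CPM in sgLuc SGC0946 libraries. With the UTX guides the values were 21.3, 17.3, 24.3 and 22.0 CPM in DMSO and 30.8, 29.1, 35.0 and 39.0 CPM in SGC0946. The 4 sgUTX SGC0946 libraries thus stayed below the sgLuc DMSO libraries, at 79.5% of their mean. The rise with SGC0946 was 2.41 on the log2 scale in sgLuc cells (SE 0.14, edgeR adjusted p = 6.591e-10) and 0.66 in sgUTX cells (SE 0.10, edgeR adjusted p = 0.0001071). Their difference was -1.76 (SE 0.17, edgeR adjusted p = 9.946e-07). Against sgLuc, the sgUTX level was lower by a log2 fold change of -0.99 in DMSO (SE 0.12, edgeR adjusted p = 3.217e-06) and -2.75 in SGC0946 (SE 0.11).

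FCGR2B, the inhibitory receptor, rose with SGC0946 alongside the low-affinity activating receptors. Its libraries held 72 and 52 counts in sgLuc DMSO (4.48 and 3.94 CPM) and 1627 and 2034 counts in sgLuc SGC0946 (98.2 and 112.8 CPM). In sgUTX cells they held 7, 0, 3 and 3 counts in DMSO and 45, 38, 38 and 27 counts in SGC0946 (1.38 to 2.15 CPM). The sgUTX SGC0946 libraries stayed below the sgLuc DMSO libraries, at 42.2% of their mean. SGC0946 raised FCGR2B by 4.64 on the log2 scale in sgLuc cells (SE 0.19, edgeR adjusted p = 3.018e-14) and by 3.38 in sgUTX cells (SE 0.36, edgeR adjusted p = 2.121e-07). For sgUTX against sgLuc the log2 fold change was -4.64 in DMSO (SE 0.36, edgeR adjusted p = 4.149e-10) and -5.90 in SGC0946 (SE 0.15). The difference of the responses was -1.25 (SE 0.59) and missed the threshold (edgeR adjusted p = 0.107). It passed with DESeq2 (-1.24, adjusted p = 0.0279) and without the second sgUTX_2 DMSO library, which has 0 counts (-1.72, edgeR adjusted p = 0.00952).

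FCGRT, the heavy chain of the neonatal Fc receptor, was the member whose response was larger in sgUTX than in sgLuc cells. It read 65.2 and 64.6 CPM in sgLuc DMSO and 105 and 100.8 CPM in sgLuc SGC0946 libraries. In sgUTX cells it read 14.1, 15.2, 13.1 and 13.6 CPM in DMSO and 32.0, 34.5, 31.6 and 32.4 CPM in SGC0946. The rise with SGC0946 was 0.67 on the log2 scale in sgLuc cells (SE 0.08, edgeR adjusted p = 4.54e-07) and 1.22 in sgUTX cells (SE 0.07, edgeR adjusted p = 1.323e-12), a difference of 0.55 (SE 0.10, edgeR adjusted p = 0.0002694). In sgUTX SGC0946 libraries the level still was 50.3% of the sgLuc DMSO mean. For sgUTX against sgLuc the log2 fold change was -2.21 in DMSO (SE 0.07, edgeR adjusted p = 1.415e-16) and -1.66 in SGC0946 (SE 0.07). Its light chain B2M moved in the same directions by less: -0.62 for sgUTX in DMSO, 0.38 and 0.22 for SGC0946 in sgLuc and sgUTX cells, and -0.78 for sgUTX in SGC0946, each called (edgeR adjusted p at most 0.03423).

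The difference of the responses was called for some of the 8 genes and not for others. Of all genes tested, 34.8% were called for this difference (18.3% higher and 16.5% lower), against 1 Fc receptor gene with a larger response in sgUTX cells (FCGRT) and 3 with a smaller response (FCGR3A, FCER1G and FCAR). These counts describe the 8 genes and do not set them apart from all genes. FCGR3A passed the filter on low counts through the groups where it is high. Its call was lost without the second sgUTX_2 DMSO library and without the second sgUTX_4 DMSO library. For the other 4 genes the test missed the threshold. FCGR1A, FCGR2A and FCGR3B had intervals that include 0. The interval of FCGR2B did not (-2.48 to -0.03), but its adjusted p missed the threshold (edgeR adjusted p = 0.107). FCGR2B and FCGR3B had wide intervals, with 13 counts and 1 count in the sgUTX DMSO libraries.

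**Figure D2:**
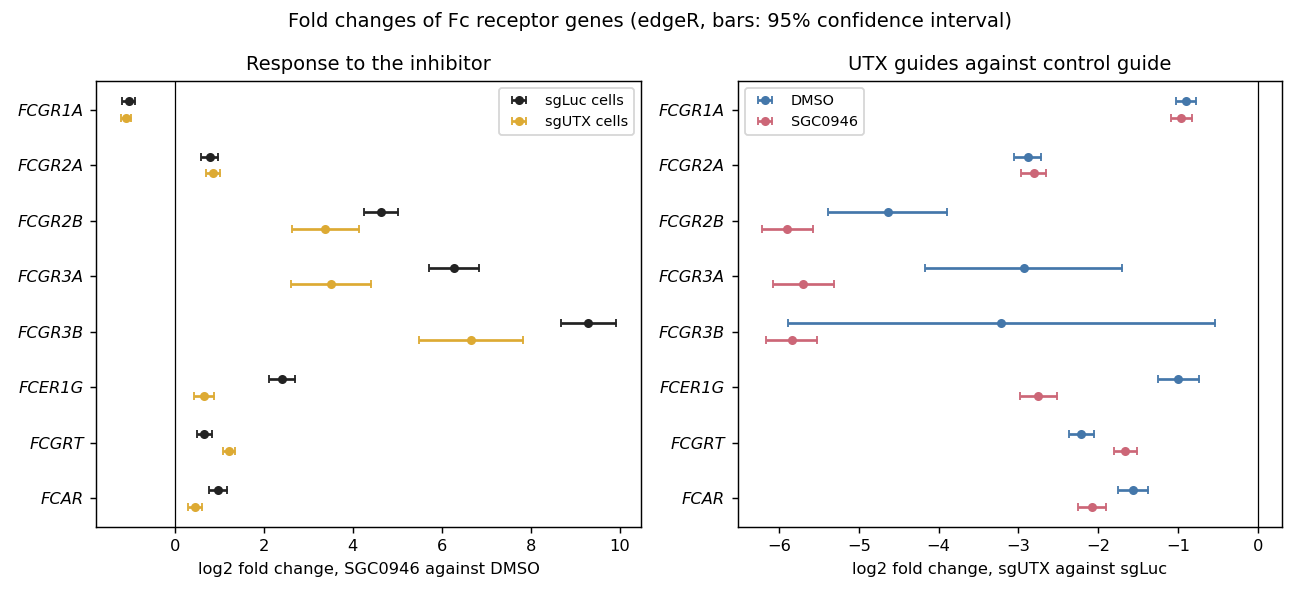
Log2 fold changes of the 8 Fc receptor genes with 95% confidence intervals from edgeR: SGC0946 against DMSO in sgLuc (black) and sgUTX (yellow) cells on the left, sgUTX against sgLuc in DMSO (blue) and SGC0946 (red) on the right. FCGR1A alone lies left of 0 in the left panel, at -1.03 and -1.09, and FCER1G has separate intervals for its responses of 2.41 and 0.66.

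Compared per length of exonic sequence, the make-up of the receptor set changed with treatment. In sgLuc DMSO libraries FCGR1A stood highest at 61.1 ± 3.08 CPM per kilobase (SD, n = 2), followed by FCER1G at 43.7, FCGR2A at 24.9, FCAR at 23.7 and FCGRT at 15.5. FCGR2B, FCGR3A and FCGR3B lay at 0.633, 0.393 and 0.0572 CPM per kilobase. In sgLuc SGC0946 libraries FCER1G stood first at 233, and FCAR (46.7), FCGR2A (42.9), FCGR3B (36.2) and FCGR3A (31.4) all stood above FCGR1A (29.9). In sgUTX cells FCGR1A and FCER1G stayed the highest pair, at 32.9 and 22.0 CPM per kilobase in DMSO and at 15.4 and 34.7 in SGC0946. FCGR3A, FCGR3B and FCGR2B stayed between 0.267 and 0.646 in the sgUTX SGC0946 libraries.

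The balance of activating FCGR2A to inhibitory FCGR2B was followed within each library as the ratio of their counts, with 0.5 added to each. In sgLuc cells it was 30.0 and 32.6 in DMSO and 2.21 and 2.11 in SGC0946. In sgUTX cells it was 48.9, 711, 109 and 92.4 in DMSO, the 711 coming from the library with 0 FCGR2B counts, and 17.0, 19.5, 14.8 and 23.1 in SGC0946. The ratio was lower in each SGC0946 library than in each DMSO library of the same genotype. The mean log2 ratio in sgUTX cells differed by -2.90 between SGC0946 and DMSO, and by -2.23 with FCGR2C counts added to FCGR2B. This is a description with no test, since FCGR2B passed the filter on low counts through the groups where it is high and the ratio restates its rise.

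The share of FCGR3B in the summed counts of FCGR3A and FCGR3B was 54.5% and 54.6% in sgLuc SGC0946 libraries (Wilson 95% intervals 52.8% to 56.2% and 53.0% to 56.2%). In sgLuc DMSO it was 2 of 26 counts (7.69%, interval 2.14% to 24.1%) and 3 of 14 counts (21.4%, interval 7.57% to 47.6%). In sgUTX SGC0946 it was 40.0%, 50.8%, 51.7% and 66.2% of 61 to 87 counts. In sgUTX DMSO it was 0 of 5 counts in 2 libraries (Wilson upper bound 43.5%) and 1 of 3 counts in another, and the last library held no count of either gene. The mean share differed by 41.1 percentage points between SGC0946 and DMSO in sgUTX cells, with at most 5 counts behind each DMSO value. It is given with no test, since both genes passed the filter on low counts through the groups where they are high. Because the pair differ at so few bases, the share depends on how reads were assigned.

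**Figure D3:**
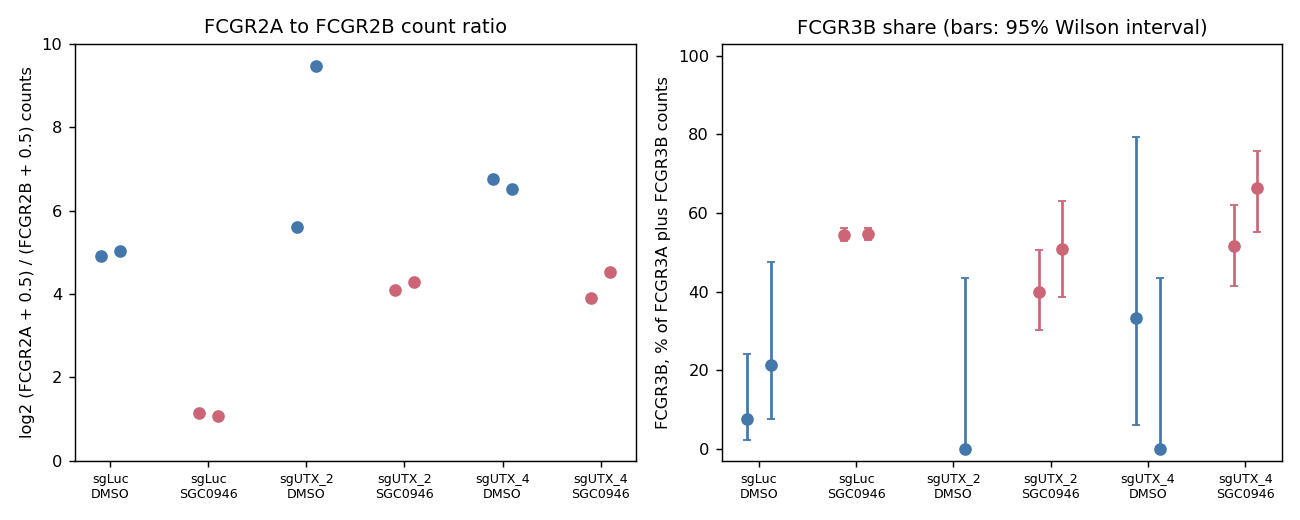
Left: log2 ratio of FCGR2A to FCGR2B counts (0.5 added to each) per library; right: FCGR3B as a percentage of FCGR3A plus FCGR3B counts per library with Wilson 95% intervals, for each guide in DMSO (blue) and SGC0946 (red). The ratio is lowest in sgLuc SGC0946 (2.21 and 2.11 before the log), and the FCGR3B share there is 54.5% and 54.6%; 1 sgUTX_2 DMSO library has no share because both counts are 0.

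The summed counts of the copies do not depend on how reads were split among the genes in the sum, which leave out the overlapping AL590385.2. FCGR3A with FCGR3B rose with SGC0946 by 7.22 in sgLuc (SE 0.25) and 4.46 in sgUTX cells (SE 0.37) on the log2 scale, and the responses differed by -2.76 (SE 0.80, edgeR adjusted p = 0.01498). FCGR2A, FCGR2B and FCGR2C together rose by 1.44 in sgLuc (SE 0.09) and 0.97 in sgUTX cells (SE 0.07). The responses of this sum differed by -0.47 (SE 0.12, edgeR adjusted p = 0.002698), against 0.07 for FCGR2A alone. The p-values of both sums are descriptions only. FCGR2B, FCGR2C, FCGR3A and FCGR3B passed the filter on low counts through the groups where they are high. FCGR1A with FCGR1B and FCGR1CP fell by 0.79 and 0.98 on the log2 scale in sgLuc and sgUTX cells, with a difference of -0.19 (edgeR adjusted p = 0.08832). For sgUTX against sgLuc the sums fell by 3.02, 2.91 and 0.86 on the log2 scale in DMSO for the CD16, CD32 and CD64 genes.

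The copies by themselves did not all move with the genes they resemble. FCGR1B read 19.4 ± 1.77 CPM in sgLuc DMSO and 23.4 ± 0.508 in sgLuc SGC0946 libraries (SD, n = 2), a log2 fold change of 0.27 that missed the threshold (edgeR adjusted p = 0.05889), while FCGR1A fell by 1.03. FCGR1CP likewise gave 0.32 (edgeR adjusted p = 0.2159). In sgUTX cells both fell, by 0.33 (edgeR adjusted p = 0.005527) and 0.94 (edgeR adjusted p = 0.0001401) on the log2 scale. FCGR2C held 10 and 17 counts in sgLuc DMSO and 662 and 709 in sgLuc SGC0946 libraries, a rise of 5.41 (SE 0.27), and rose by 2.76 in sgUTX cells (SE 0.33). The difference of its responses was called (-2.64, edgeR adjusted p = 0.000846).

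By single guide, the background for sgUTX against sgLuc in DMSO was 60.4% for sgUTX_2 (28.2% higher and 32.2% lower) and 59.7% for sgUTX_4 (28.5% higher and 31.2% lower), against 8 and 7 of the 8 genes, each lower. The gene not called with sgUTX_4 was FCGR3B (1 count against 5, edgeR adjusted p = 0.07742). In SGC0946 the background was 56.4% (27.3% higher and 29.1% lower) and 56.3% (27.3% and 29%), and the 8 genes were lower with each guide. SGC0946 against DMSO called 27.8% of genes in sgUTX_2 cells (14.1% higher and 13.7% lower) and 26.4% in sgUTX_4 cells (13.9% and 12.5%), against 7 genes higher and FCGR1A lower with each guide. Between the guides themselves, 3.49% of genes were called in DMSO (1.72% higher and 1.77% lower with sgUTX_4) and none of the 8 at an adjusted p under 0.05. With SGC0946 3.01% were called (1.61% higher and 1.4% lower) and 2 of the 8, FCGR3B (0.89 higher with sgUTX_4 on the log2 scale, SE 0.23, edgeR adjusted p = 0.02812) and FCER1G (0.31 higher, SE 0.09, edgeR adjusted p = 0.0443). Without any 1 of the 6 SGC0946 libraries neither was called, and without either sgLuc DMSO library 1 of them was.

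Sequence upstream of the start was read for 7 of the 8 genes from RefSeq (GRCh38.p14, windows from 250 bases before to 50 after a start). The 250 bases upstream of FCGR1A, the gene that fell with SGC0946, and of the start of FCGR2B whose window holds the searched words, a gene that rose, are shown side by side. Capitals mark exact matches on either strand to GAGGAA, a core word of the myeloid factor PU.1, or TTCNNNGAA, the GAS word bound by STAT factors, and the matches do not overlap.
FCGR1A (chr1:149782444-149782693, plus): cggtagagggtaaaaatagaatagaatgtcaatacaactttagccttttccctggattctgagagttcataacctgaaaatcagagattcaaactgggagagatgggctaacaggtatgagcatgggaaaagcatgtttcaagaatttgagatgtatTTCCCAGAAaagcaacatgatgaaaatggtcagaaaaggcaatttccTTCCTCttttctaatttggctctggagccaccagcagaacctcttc
FCGR2B (chr1:161662893-161663142, plus): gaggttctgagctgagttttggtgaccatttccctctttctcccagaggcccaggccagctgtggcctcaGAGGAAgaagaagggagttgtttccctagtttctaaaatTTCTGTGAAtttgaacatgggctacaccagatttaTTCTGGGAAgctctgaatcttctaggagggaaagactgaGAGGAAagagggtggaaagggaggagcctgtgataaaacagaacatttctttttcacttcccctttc

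FCGR1A holds 1 match to each word, and this start of FCGR2B holds 2 of each. FCGR2A has 1 match to GAGGAA, and the other start of FCGR2B and the windows of FCGR3A, FCGR3B, FCER1G and FCGRT have none to either. None of the windows held TTGCNNAA, a C/EBP half-site word. Among 35116 promoter windows of the same length, 23.6% hold GAGGAA, 6.57% TTCNNNGAA and 9.05% TTGCNNAA. A match describes letters in a window and is not a measured binding site.

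Other genes of the same pathway were followed as lists, whose counts stand against the shares of all genes called: 28.7% higher and 32.3% lower for sgUTX against sgLuc in DMSO and 27.7% and 29.3% in SGC0946, and 24.7% and 24.2% for SGC0946 in sgLuc cells and 17.4% and 16.4% in sgUTX cells. Of 15 other Fc receptor and Fc receptor-like genes 10 were tested: 7 were lower and none higher in sgUTX than sgLuc libraries in DMSO (median log2 fold change -1.94, all genes -0.01), and 6 were higher and 1 lower with SGC0946 in sgLuc cells (median 1.12, all genes 0.00). FCMR, the IgM receptor, was among the lower ones, at 10.9 ± 1.03 CPM in sgLuc DMSO (SD, n = 2) and 1.20 ± 0.313 in sgUTX DMSO libraries (SD, n = 4), a log2 fold change of -3.17 (edgeR adjusted p = 1.202e-08). FCRL1 read 0.0757 CPM in sgLuc DMSO and 5.38 in sgLuc SGC0946 libraries and FCRLB 1.37 and 4.24, while MS4A2, the beta chain of the IgE receptor, fell from 2.85 to 1.10 CPM (edgeR adjusted p = 0.0121). Most of this list lay under 6 CPM in all groups, and FCER1A, the IgE-binding chain, did not pass the filter.

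TYROBP, which encodes DAP12, the other ITAM adaptor of myeloid cells, moved in the same directions as FCER1G. It read 244 ± 4.63 CPM in sgLuc DMSO and 488 ± 7.10 in sgLuc SGC0946 libraries (SD, n = 2). In sgUTX libraries it read 106 ± 7.04 CPM in DMSO and 129.9 ± 5.03 in SGC0946 (SD, n = 4). SGC0946 raised it by 1.00 in sgLuc and 0.29 in sgUTX cells on the log2 scale, a difference of -0.71 (SE 0.09, edgeR adjusted p = 1.81e-06). Of 6 tested receptors that pair with the FcR gamma chain, 5 were higher with SGC0946 in sgLuc cells and 4 in sgUTX cells, with none lower (medians 2.04 and 1.20). CLEC4E, the receptor Mincle, went from 1.10 ± 0.153 to 28.1 ± 2.28 CPM in sgLuc cells (SD, n = 2), a rise of 4.67 (SE 0.34, edgeR adjusted p = 2.88e-09), and CLEC4D and OSCAR rose by 2.65 and 1.43. In DMSO 3 of these 6 were lower in sgUTX libraries, LILRA2 by the most (-1.42, SE 0.08, edgeR adjusted p = 8.165e-12), and in SGC0946 all 6 were lower (median -1.64).

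Signalling genes downstream moved in both directions. Of 18 tested activating signalling genes, 3 were higher and 10 lower in sgUTX libraries in DMSO (median -0.20), and with SGC0946 8 were higher and 4 lower in sgLuc cells (median 0.21) and 2 higher and 6 lower in sgUTX cells (median -0.03). SYK, the kinase that binds the ITAM, read 408 ± 13.7 CPM in sgLuc DMSO and 508 ± 9.39 in sgLuc SGC0946 libraries (SD, n = 2), a log2 fold change of 0.32 (SE 0.09, edgeR adjusted p = 0.004354). The SRC-family kinase FGR rose by 1.67 with SGC0946 in sgLuc cells (edgeR adjusted p = 3.524e-15) but gave 0.01 in sgUTX cells (edgeR adjusted p = 0.9377), a difference of -1.66 (edgeR adjusted p = 9.009e-13).

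On the inhibitory side 9 genes were tested, and 3 were higher and 6 lower in sgUTX libraries in DMSO (median -0.50). With SGC0946 2 were higher and 4 lower in sgLuc cells (median 0.06), and 2 higher and 3 lower in sgUTX cells (median -0.12). INPP5D, the phosphatase recruited by FCGR2B, fell with SGC0946 in sgLuc cells, from 463 ± 3.14 to 301 ± 6.88 CPM (SD, n = 2, log2 fold change -0.62, edgeR adjusted p = 6.05e-08), while FCGR2B rose. The adaptor DOK2 and the ubiquitin ligase CBLB were lower in sgUTX libraries in DMSO by -1.0 and -1.01 on the log2 scale. Of 18 genes of the actin machinery of phagocytosis, 1 was higher and 12 lower in sgUTX libraries in DMSO (median -0.30), and 10 were higher and 2 lower with SGC0946 in sgLuc cells (median 0.18). GSN, the actin-severing protein gelsolin, was lowest against sgLuc in DMSO, at -2.98 (SE 0.07, edgeR adjusted p = 4.503e-19), and WAS was lower by -1.03. In SGC0946, sgUTX libraries had 1 activating gene higher and 12 lower, 1 inhibitory gene higher and 7 lower, and 15 actin genes lower.

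**Figure D4:**
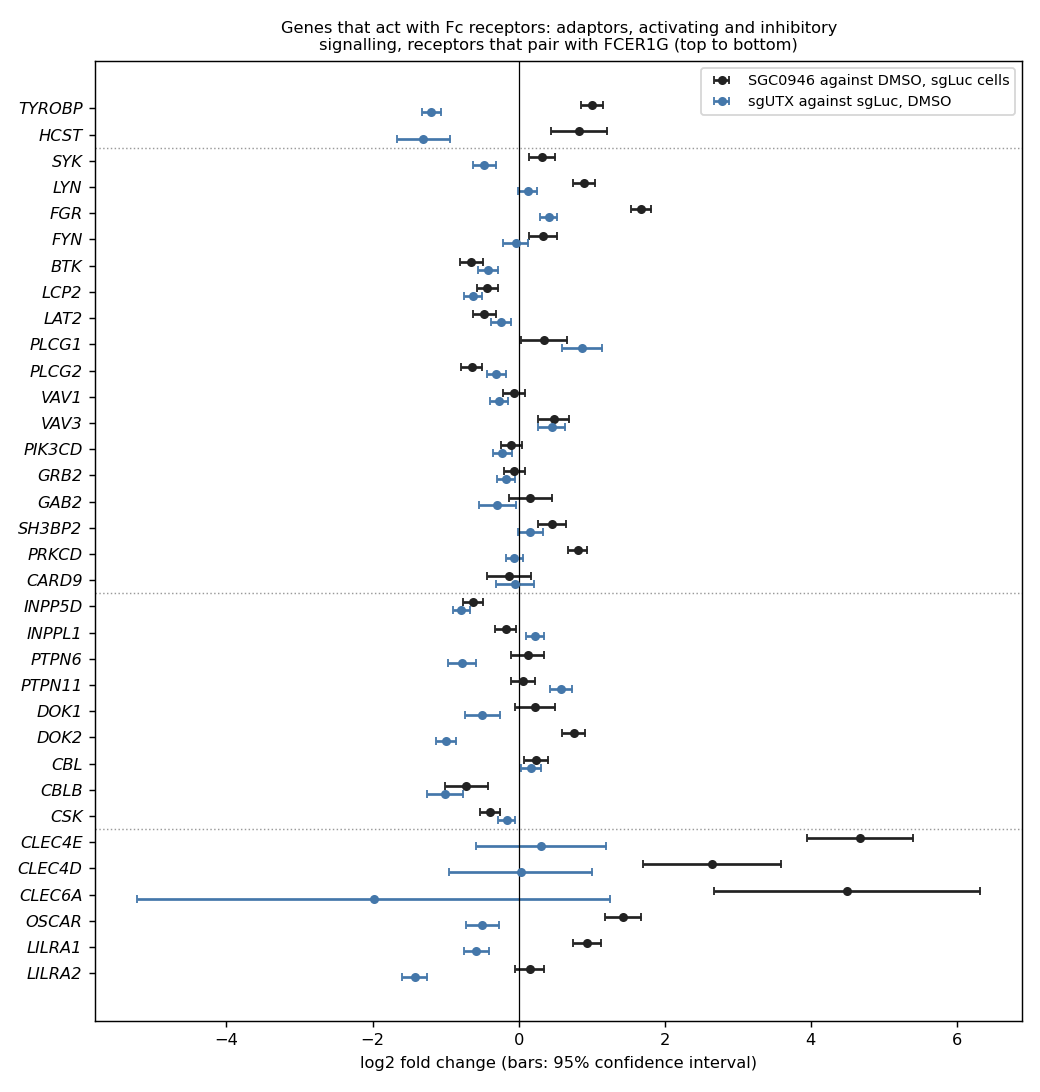
Log2 fold changes with 95% confidence intervals of genes that act with Fc receptors, in 4 blocks from top to bottom: ITAM adaptors, activating signalling, inhibitory signalling, and receptors that pair with FCER1G, for the list genes reported here. Black is SGC0946 against DMSO in sgLuc cells and blue sgUTX against sgLuc in DMSO; most signalling genes lie within 1 log2 unit of 0, while CLEC4E and CLEC4D reach 4.67 and 2.65 with SGC0946.

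Markers of cell types were read beside these values. The myeloid list was detected with 8 of 8 genes in each group, which is what the label of a myeloid leukemia line calls for, and its summed level was 1502 to 1648 CPM in sgLuc DMSO, 12076 to 12281 in sgLuc SGC0946, 1145 to 1506 in sgUTX DMSO and 4352 to 6308 in sgUTX SGC0946 libraries. LYZ makes up most of the SGC0946 sums. CD14, a monocyte marker, read 8.60 CPM in sgLuc DMSO, 556 in sgLuc SGC0946, 2.20 in sgUTX DMSO and 16.8 in sgUTX SGC0946 libraries, and ITGAM 6.18, 203, 2.02 and 14.9 CPM. CD33 had the same order of groups as these markers, while PTPRC stood higher in sgLuc DMSO than in sgUTX SGC0946 libraries. For CSF1R these groups overlapped, at 59.7 to 68.9 CPM in sgLuc DMSO and 52.1 to 73.5 CPM in sgUTX SGC0946 libraries. MPO went the other way between guides, at 63.2 CPM in sgLuc and 106 in sgUTX libraries in DMSO and 360 and 491 CPM in SGC0946, LYZ read 356 and 376 CPM in DMSO and 9350 and 3840 in SGC0946, and SPI1 lay between 366 and 466 CPM in the 4 groups. The part of this myeloid program in the receptor changes was not tested.

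For other cell types known to carry these receptors the levels were low or carried by single genes. Of the neutrophil list, CSF3R and CXCR2 took nearly all of 384 to 410 CPM in sgLuc DMSO, 709 to 715 in sgLuc SGC0946, 212 to 229 in sgUTX DMSO and 354 to 374 in sgUTX SGC0946 libraries, and ALPL was at 0 apart from 1 count. From DMSO to SGC0946 in sgLuc cells, CSF3R went from 382 to 600 CPM and CXCR2 from 14.5 to 108 CPM. FFAR2 went from 0 to 58 counts there and CMTM2 from 5 to 86 counts. The natural killer list summed to 141 to 143, 99.7 to 102.1, 66.2 to 70.1 and 65.7 to 74.3 CPM in the same order, mostly NCAM1 and NKG7. With SGC0946 in sgLuc cells NCAM1 read 69.6 and 70.4 CPM against 104 and 104 in DMSO. NKG7 went from 32.4 to 27.2 CPM and KLRF1 from 168 to 27 counts. GNLY went from 1 to 90 counts and NCR1 from 0 to 8 counts, and KLRD1 and KLRB1 stayed at 0 to 2 counts a group. T cell markers summed to at most 12.1 CPM, B cell markers to at most 8.59 with MS4A1 at 0, mast cell and basophil markers to at most 37.8 (mostly GATA2) with CPA3 at 0 or 1 count, erythroid markers to at most 0.113 and adherent cell markers to at most 6.04. Whether any of these bears on the receptor values was not tested.

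Over the 12 libraries, log2 CPM of FCGR1A gave Pearson correlations of -0.32 to 0.37 with the other 7 genes, and the other 7 gave 0.70 to 0.98 among themselves, FCGR2A and FCAR being the closest pair. These are descriptions over libraries that share the same 6 groups. Among all genes kept, the most alike to FCGR1A were CLEC2B (0.99), MXRA7 (0.98) and PITPNC1 (0.98), and to FCGR2A BNIP3L and CCNG2. FCGR2B was most alike to LFNG and CD86, FCGR3A to NLRC4, ADAM11 and MGAM, and FCGR3B to STX3, SLC2A6 and SULT1B1. The most alike to FCER1G were PILRA, HCLS1 and ITPK1, to FCGRT IL16, PECAM1 and TNNT1, and to FCAR DOK2, MKNK2 and ARAP1. The correlations behind these names, FCGR1A apart, lay between 0.989 and 0.997.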

How the data were processed

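RNA of 12 OCI-AML2 libraries, 2 for each of 6 groups taken from the labels, was read as pairs of 150 bases. The authors deposited raw counts per gene, not normalized. The aligner STAR 2.5.1b and the build hg19 are named per the submitters' processing notes. The 58735 identifiers are those of GENCODE 29 (GRCh38), from which names and positions were taken, so the build behind the counts is uncertain.

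The 8 genes, the copies, the gene lists and the markers were chosen with earlier results of these data known. Counts were fitted with edgeR 4.0.16 under R 4.3.3 (the filterByExpr filter, TMM scaling, and two-sided quasi-likelihood tests with robust dispersion), with Benjamini-Hochberg adjustment over the 15060 genes kept. All 12 libraries entered 4 groups (sgLuc or sgUTX, DMSO or SGC0946), with 8 residual degrees of freedom, and a fit of 6 groups (6 degrees of freedom) gave the single guides. Standard errors were derived from each fold change and its test statistic. The fits were tested on simulated data. DESeq2 1.42.0 was an alternative test. The 2 libraries of each group differed by more than sampling noise (chi-square per gene 2.85 to 6.29).

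Ratios of FCGR2A to FCGR2B used a pseudocount of 0.5, and the FCGR3B share left out 1 sgUTX_2 DMSO library with 0 counts of both genes. The exact permutation tests planned for both were run but are not used, since FCGR2B, FCGR3A and FCGR3B passed the filter through the groups where they are high. For the same reason the edgeR p-values of these genes, and of sums that include them, are given as descriptions only. Levels per length used the merged exons of GENCODE 29. Named list genes passed the test with an absolute log2 fold change of at least 1, at most 5 a list, besides SYK, INPP5D, TYROBP and B2M. From the lists the text names only some of those, leaving out ones that rest on few counts, and it names MS4A2, CLEC4D, FCRL1, FCRLB and markers of cell types with values alone or as list members. The 3 most alike genes had the highest Pearson r of log2 CPM (prior count 2). A few genes that these rules select are left out of the text and the figures, though list counts include them. Alternatives were other scaling and filters, DESeq2, a replicate block, summed copies and leaving out each library.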

Additional observations from a re-analysis of the deposited data

Results flagged for a closer look

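The response to SGC0946 differed between sgUTX and sgLuc cells for 4 of the 8 Fc receptor genes, by the test of the difference itself (edgeR, adjusted over all genes), beside 34.8% of all genes tested (18.3% higher and 16.5% lower). The log2 response was smaller in sgUTX cells for FCGR3A (-2.77, adjusted p = 0.01256), FCER1G (-1.76, adjusted p = 9.946e-07) and FCAR (-0.52, adjusted p = 0.002811), and larger for FCGRT (0.55, adjusted p = 0.0002694). The FCGR3A value rests on 12 counts in the 4 sgUTX DMSO libraries. Its p-value is a description only, since FCGR3A passed the filter on low counts through the groups where it is high.

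A single library was flagged for FCGR3B in the sgUTX DMSO group: the first sgUTX_4 library has 1 count and the other 3 have 0, so its gap to the nearest library is the whole range of the group (ratio 1). Any such group with 1 count beside zeros gives this ratio, so the flag does not show that the library stands apart. It was the only flag among 16 groups of 4 libraries examined for the 8 genes. The chance rate of about 5% for such flags does not apply to counts this low.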

How the results depend on the processing

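Of 152 alternative values for single genes in each comparison, 152 kept direction and call for SGC0946 against DMSO in sgLuc cells, 152 in sgUTX cells, 152 for sgUTX against sgLuc in SGC0946, 147 in DMSO (the exceptions being FCGR3B with a library left out) and 144 for the difference of the responses. The difference for FCGR2A turned from 0.07 to -0.014 (edgeR adjusted p = 0.9423) with scaling by total counts and to -0.47 (adjusted p = 0.002698) with FCGR2A, FCGR2B and FCGR2C summed, since the sum includes the copies. Summing gave the same -0.47 for FCGR2B and -2.76 for FCGR3B (adjusted p = 0.01498), both then called. The p-values of these sums are descriptions only, as for the genes near 0 counts that they include. The number of the 8 genes called between the guides was 0 to 1 in DMSO and 0 to 1 in SGC0946 with a library left out where it changed (2 otherwise), and 1 in SGC0946 with scaling by total counts. With a library left out, the FCGR3B share difference lay between 35.5 and 52.2 points and the log2 ratio of FCGR2A to FCGR2B between -3.39 and -2.11. Both are descriptions with no test. The labels give replicate numbers, but same-numbered libraries did not deviate together (correlations -0.111 to 0.0731). With 2 libraries a group this cannot exclude a culture or batch shared by libraries of the same number. The replicate block changed no count of called genes (8, 8, 8, 8 and 4 in the 5 comparisons). A crossed pairing in sgUTX_2 cells, chosen after seeing the data, also called 8 genes. Depth limits FCGR2B, FCGR3A and FCGR3B, which have 13, 12 and 1 counts in sgUTX DMSO libraries.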
